A study of Rattus norvegicus with 53 samples.

Results

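Histone-modifying enzymes were followed as 60 rat genes, which 100 of the 31099 probe sets of the array represent. A gene belonged to them where its platform symbol named it a zinc-dependent deacetylase (Hdac, 10 genes), a sirtuin (Sirt, 6), an acetyltransferase (Kat, 7), a lysine methyltransferase (Kmt, 8, or Setd, 7), an arginine methyltransferase (Prmt, 7) or a demethylase (Kdm, 15), and each gene was read at its brightest probe set. They stand among 14218 genes with a symbol of their own. L6 cells, an established skeletal muscle line, were differentiated and kept without serum, and were then given 20 nM insulin (insulin culture, 23 arrays from hours 1 to 8) or the same medium with no insulin (control culture, 24 arrays). Both cultures were also sampled at time 0, before any insulin, with 3 arrays each. Each hour is a pool of 3 harvests taken 20 min apart. The experiment was repeated on different days with 1 cell line. The letters a, b and c of the sample titles are read as these repeats. The hourly arrays of a repeat entered the tests as separate arrays. The p-values therefore measure the spread between arrays of the same culture and hour, 1 from each repeat of that line. They count the hours of a repeat as independent, although there were only 3 repeats. Repeat a had no insulin array at hour 3 here.

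Histone tails carry acetyl and methyl groups, and the enzymes that add them (writers) or remove them (erasers) set how open the DNA around a gene is. Kat enzymes add acetyl groups from acetyl-CoA, and Hdac enzymes and the NAD+-dependent sirtuins take them off. Kmt, Setd and Prmt enzymes add methyl groups from S-adenosylmethionine, and most Kdm enzymes remove them with iron, oxygen and 2-oxoglutarate. In muscle, class IIa deacetylases hold back the transcription factor Mef2 and leave the nucleus when phosphorylated. Several members were brought in by symbol although they are known mainly for other substrates, among them the mitochondrial sirtuins Sirt3, Sirt4 and Sirt5, the tubulin deacetylase Hdac6, the actin methyltransferase Setd3, the NF-kappaB methyltransferase Setd6 and Prmt3, which methylates a ribosomal protein.

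The labels call the cells myoblasts, and the array showed genes of differentiated muscle cells beside genes of dividing cells. Acta1, Myh3 and Myog had mean log2 levels of 13.48, 13.43 and 12.37. The 19 myotube markers ran from 4.73 to 13.48, with a median of 10.60. The 8 proliferation markers ran from 8.31 to 10.16, with a median of 9.04. The 4 neural markers ran from 4.21 to 7.27, and none of the 3 tested passed between the cultures. Over hours 1 to 8 none of the 18 tested of 19 myotube markers and none of 8 proliferation markers passed between the cultures (all genes 14.1%). Most myotube markers lay below 0 (all genes 51.6%), from -0.19 for Myl1 to 0.027 for Myh8. Most proliferation markers lay above 0, from -0.068 for Aurkb to 0.085 for Top2a. Of 4 tested macrophage markers 1 was higher with insulin (all genes higher, 5.75%), and no endothelial or adipocyte marker reached the level of the probe sets tested. The undifferentiated myoblast markers sought, Myf5, Pax7, Pax3 and Msgn1, had no probe set with a symbol of their own. In bulk RNA, fewer cells of a kind and less RNA per cell cannot be told apart.

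Repeat b stood apart before insulin was given. Across the 57 members tested, its insulin minus control difference at time 0 correlated with that of hours 1 to 5 at 0.90, against 0.21 in repeat a and 0.13 in repeat c, where the points of a repeat share its arrays. Over all probe sets tested the values were 0.77 in repeat b, 0.025 in repeat a and 0.15 in repeat c, so this was not particular to the members. The 3′ minus 5′ signal of beta-actin, a gauge of RNA quality, differed between insulin and control culture by 0.47 at time 0 and 0.33 at hours 1 to 5 in repeat b, and by between -0.11 and 0.11 in repeats a and c and in hours 6 to 8 of repeat b. The same measure of hexokinase differed otherwise, by 0.23, -0.15 and 0.60 at hours 6 to 8 in repeats a, b and c, by -0.062, 0.10 and -0.19 at hours 1 to 5, and by -0.077, 0.058 and -0.23 at time 0, and that of GAPDH by between -0.10 and 0.052. Their part in the members' differences, the late ones included, was not tested.

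**Figure D1:**
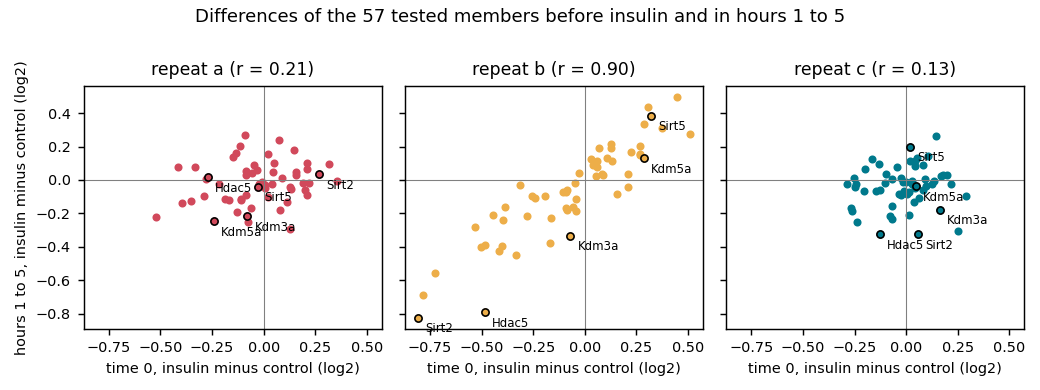
Insulin minus control difference (log2) of each of the 57 tested members at time 0 (horizontal axis) and over hours 1 to 5 (vertical axis), with 1 panel for each repeat. The points run along a diagonal in repeat b (r = 0.90), where Sirt2 and Hdac5 are low and Sirt5 high on both axes, and form a cloud in repeats a and c (r = 0.21 and 0.13).

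The mean log2 level of the 57 tested members over all arrays ran between 5.67 for Prmt6 and 11.09 for Hdac2. Kdm4c (3.64), Prmt8 (3.87) and Setd1b (4.01) were too dim to be tested. Signals of different probe sets are not comparable amounts of RNA, so each gene is compared only with itself.

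Averaged over hours 1 to 8, limma called 7 of 57 members (12.3%) at an adjusted p under 0.05, against 14.1% of all genes tested. Kdm3a, Hdac5, Kdm5a, Sirt2, Kmt2a and Kat6b were lower in the insulin culture (lower among all genes, 8.34%) and Sirt5 was higher (5.75%). The median difference of the members was -0.029 on the log2 scale, with 34 of 57 below 0, and that of all genes -0.0038, with 51.6% below 0. With the repeat letter as a block, 19 members were called, 6 higher and 13 lower, against 30.5% of all genes, 11.9% higher and 18.6% lower. With each repeat reduced to 1 mean difference no member passed (0.734% of all genes did), and none passed after the time 0 difference was subtracted (0% of all genes; at an unadjusted p under 0.05, 2 members and 2.35% of all genes).

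Averaged over hours 5 to 8, 8 of 57 members were called (14%, all genes 11.2%). Kdm5a, Kdm3a, Sirt4, Kat6b and Kmt2e were lower (all genes 6.5%) and Prmt3, Setd6 and Sirt7 higher (all genes 4.69%). The block called 18 members, 5 higher and 13 lower, against 25.1% of all genes, 10.3% higher and 14.8% lower. With 1 mean per repeat none of the 8 passed (3.4% of all genes did), the lowest adjusted p being 0.066 for Kdm5a, 0.069 for Prmt3 and 0.077 for Kdm3a. After subtraction of the time 0 difference none passed (0.216% of all genes did; at an unadjusted p under 0.05, 5 members and 6.48% of all genes).

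In hours 1 and 2 limma called no member (all genes 0%; at an unadjusted p under 0.05, 6 members and 10.6% of all genes), and the block called Kmt2d alone (all genes 1.93%). With 1 mean per repeat no member and none of all genes passed in these hours. No member passed at time 0 (all genes 0%; at an unadjusted p under 0.05, 0 members and 0.674% of all genes). Without the block none passed at a single hour. By hour, 2 to 6 members (3.51 to 10.5%) had an unadjusted p under 0.05, against 2.43 to 9.29% of all genes. The calls among all genes by adjusted p were 0% at hours 1 to 3 and 0.0691, 0.371, 0.406, 0.32 and 0.959% at hours 4 to 8. Tested for a difference at any hour, Kdm3a was the one member called (adjusted p 0.0055, all genes 3.07%), and 7 were called with the block (all genes 13.7%). All these comparisons share arrays.

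**Figure D2:**
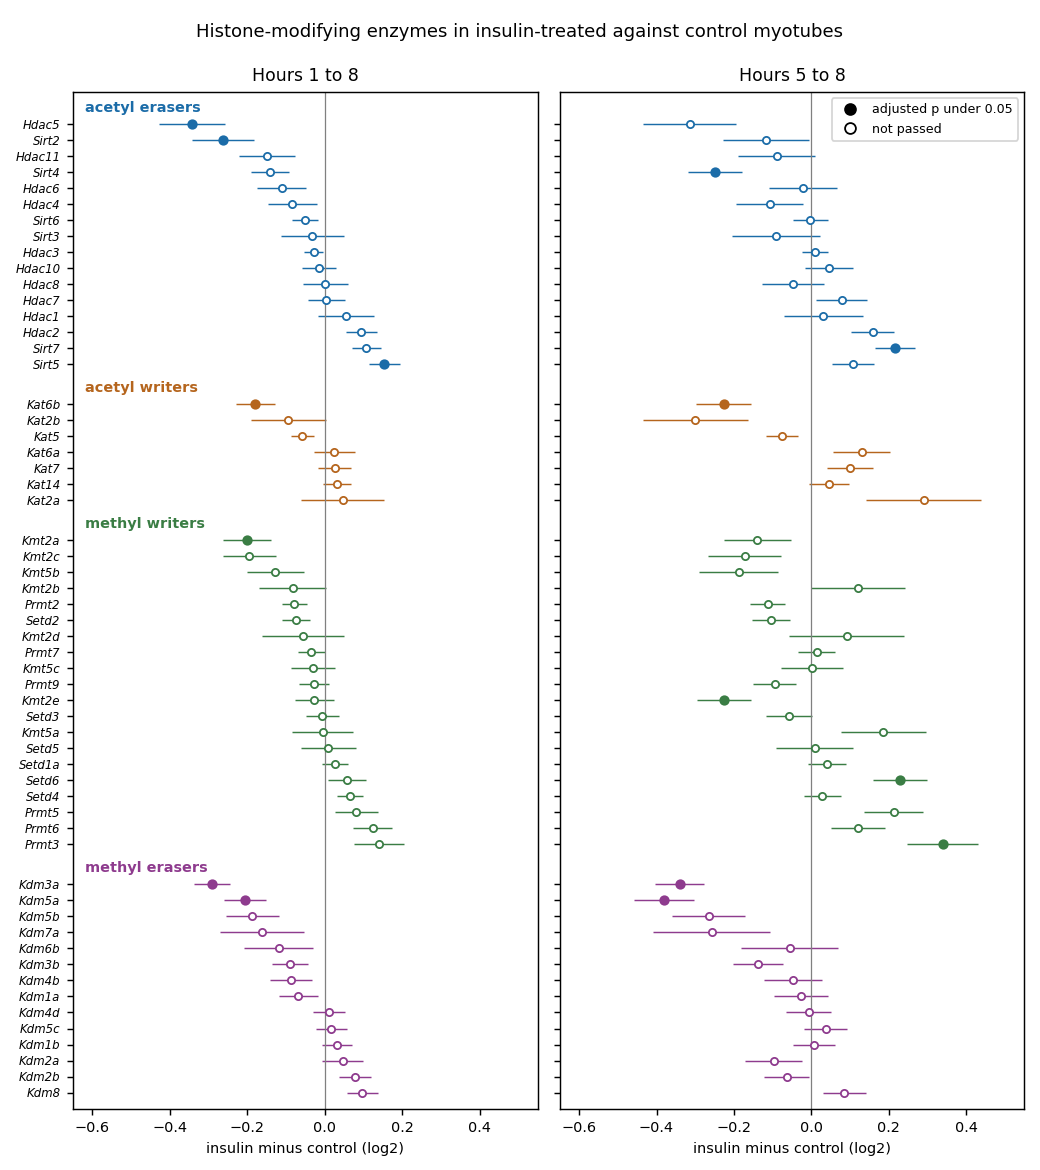
Insulin minus control difference (log2, horizontal axis) of the 57 tested members over hours 1 to 8 (left) and hours 5 to 8 (right), grouped by the enzyme's action, with bars of 1 standard error and filled points where the adjusted p was under 0.05. At hours 5 to 8 the filled points run from Kdm5a at -0.38 to Prmt3 at 0.34.

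Promoters are shown for Kdm5a, the most negative of the late calls, and for the late calls that lay on 1 side in all 12 pairs of arrays, Kdm3a, Sirt4 and Sirt7 (Prmt3, the other such member, had no entry in the promoter table used). They are RefSeq windows of 300 bases on GRCr8, which reach from upstream of an annotated start into the transcript. Kdm3a is at chr4:105233321-105233620 on the minus strand, Kdm5a at chr4:155237874-155238173 on the plus strand, Sirt4 at chr12:46791680-46791979 on the plus strand and Sirt7 at chr10:106401449-106401748 on the minus strand. Capitals mark, on either strand, ACGTG (the core bound by hypoxia-inducible factors), the GC box with the letters GGGCGG, the CCAAT box, and the FOXO core spelled TGTTTAC.
Kdm3a: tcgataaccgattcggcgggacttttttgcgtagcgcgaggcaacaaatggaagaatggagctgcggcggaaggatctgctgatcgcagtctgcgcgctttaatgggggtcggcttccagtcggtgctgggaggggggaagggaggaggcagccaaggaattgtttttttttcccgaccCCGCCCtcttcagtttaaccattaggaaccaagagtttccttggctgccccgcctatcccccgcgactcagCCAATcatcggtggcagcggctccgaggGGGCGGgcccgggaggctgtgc
Kdm5a: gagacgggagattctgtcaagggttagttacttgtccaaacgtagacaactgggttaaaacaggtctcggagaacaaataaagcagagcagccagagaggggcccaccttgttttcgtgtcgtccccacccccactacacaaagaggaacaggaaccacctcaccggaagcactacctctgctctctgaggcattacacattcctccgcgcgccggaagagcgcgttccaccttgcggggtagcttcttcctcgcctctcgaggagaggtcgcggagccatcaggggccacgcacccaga
Sirt4: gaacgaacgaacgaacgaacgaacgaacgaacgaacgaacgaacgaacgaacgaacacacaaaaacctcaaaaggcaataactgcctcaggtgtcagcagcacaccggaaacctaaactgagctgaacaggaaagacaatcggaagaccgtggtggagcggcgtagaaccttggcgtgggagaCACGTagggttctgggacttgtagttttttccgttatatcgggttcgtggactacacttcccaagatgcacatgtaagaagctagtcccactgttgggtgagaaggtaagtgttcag
Sirt7: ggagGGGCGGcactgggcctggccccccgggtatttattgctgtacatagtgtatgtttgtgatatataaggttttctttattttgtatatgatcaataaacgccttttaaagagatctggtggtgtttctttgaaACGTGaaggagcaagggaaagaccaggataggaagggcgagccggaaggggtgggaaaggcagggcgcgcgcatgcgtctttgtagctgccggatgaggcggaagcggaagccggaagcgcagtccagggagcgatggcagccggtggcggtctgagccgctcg

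Kdm3a has a second window in the table, which overlaps the first, at chr4:105233062-105233361. It held 5 GC boxes and no other of the letters searched, with a GC content of 73.7%, against 60.3% in the one shown. The Kdm3a window shown held 2 GC boxes and 1 CCAAT, and the Kdm5a window none of the letters searched. Sirt4 held 1 ACGTG, and Sirt7 1 ACGTG and 1 GC box. Over the 67 windows of the 51 members with an entry, GGGCGG was in 65.7%, against 33.1% of all 33469 windows, and the members' median GC content was 62%, against 51.7%. CCAAT was in 41.8% against 37.5%, and ACGTG, which is part of the E-box CACGTG, in 23.9% against 19.3%. CACGTG itself was in 7.46% (Hdac5, Kat5, Kdm4b, Kdm4c and Kmt2c) against 6.42%, TGTTTAC in 2.99% (Kdm2b and Kmt2c) against 3.78%, and the ATF4 letters tgatgcaa in none against 0.795%. These matches are descriptions, and ACGTG, the GC box and the CCAAT box were added after the values were seen.

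Among the methyl erasers, Kdm3a and Kdm5a were the 2 of 14 tested members called, lower in the insulin culture over hours 1 to 8 and over hours 5 to 8 (all genes lower, 8.34% and 6.5%). In the later window 11 of the 14 differences were below 0, with a median of -0.060, against 50.5% of all genes and a median of -0.0013. Kdm3a removes methyl groups from lysine 9 of histone H3 and is known as a gene induced by low oxygen. Over hours 5 to 8 its lowest, median and highest log2 levels were 7.55, 7.84 and 8.07 in the insulin culture (12 arrays), against 8.04, 8.16 and 8.27 in the control culture (12 arrays). The ranges meet in 1 insulin array, of repeat a at hour 8, and 2 control arrays, of repeat c at hours 5 and 6, and within a repeat and hour the insulin array was lower in 12 of 12 pairs. The difference was -0.34 (SE 0.064, adjusted p 2.6e-04), or 1.27-fold lower. Over hours 1 to 8 it was -0.29 (SE 0.046, adjusted p 1.9e-05), lower in 21 of 23 pairs, and -0.23, -0.32 and -0.29 in repeats a, b and c.

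Before insulin, Kdm3a differed by -0.079, -0.071 and 0.16 in repeats a, b and c, too widely to show an equal start. At time 0 the insulin culture had 8.05, 8.02 and 8.02 in repeats a, b and c, against 8.13, 8.09 and 7.85 in the control culture, a mean difference of 0.0046 (SE 0.13). At hour 3 it had 7.98 and 7.67 in repeats b and c, against 8.30 and 7.92 in the same repeats of the control culture. At hour 8 it had 8.07, 7.80 and 7.69 in repeats a, b and c, against 8.27, 8.16 and 8.15. From hour 3 on, the hourly means were 7.77 to 7.85 with insulin and 8.09 to 8.23 without. With the block, Kdm3a passed at hours 4, 5, 7 and 8, where 1.29, 3.16, 2.75 and 6.35% of all genes did. With the time 0 difference subtracted the late value was -0.35 (SE 0.14, adjusted p 0.70), of nearly the same size and with a larger error.

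Kdm5a removes methyl groups from lysine 4 of histone H3, a mark of active promoters, and binds the retinoblastoma protein. Over hours 5 to 8 its lowest, median and highest levels were 8.79, 8.94 and 9.04 in the insulin culture, against 8.92, 9.37 and 9.53 in the control culture. All control arrays but that of repeat b at hour 5 (8.92) lay above every insulin array. The difference was -0.38 (SE 0.077, adjusted p 6.6e-04), or 1.30-fold lower, and -0.46, -0.19 and -0.49 in repeats a, b and c. At hour 8 the insulin culture had 9.03, 8.94 and 8.79, against 9.49, 9.24 and 9.39 in the control culture. Over hours 1 to 8 the difference was -0.21 (SE 0.055, adjusted p 0.010), with -0.030 in repeat b. Without repeat c Kdm5a missed the threshold in both windows (adjusted p 0.10 over hours 5 to 8 and 0.21 over hours 1 to 8), whereas Kdm3a passed in both without any 1 repeat.

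Early on, the repeats of Kdm5a did not share a direction. Over hours 1 and 2 it differed by -0.076, 0.30 and 0.18 in repeats a, b and c, after -0.24, 0.28 and 0.047 at time 0. The change of its difference, hours 5 to 8 less hours 1 and 2, was -0.51 (SE 0.13, adjusted p 0.033). That comparison called 2 members (all genes 2.27%), or 13 with the block (all genes 13.9%), and Kdm5a missed the threshold without repeat b at hours 0 to 5 (-0.48, adjusted p 0.25). Hours 5 to 8 minus time 0 came to -0.19 (SE 0.12, adjusted p 0.67) within the insulin culture and 0.22 (SE 0.12, adjusted p 0.35) within the control culture, and neither passed. Of the 3 dimmer probe sets of Kdm5a, 1 was lower at hours 5 to 8 (-0.30, adjusted p 0.020), and the others, at -0.31 and -0.29, did not pass.

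**Figure D3:**
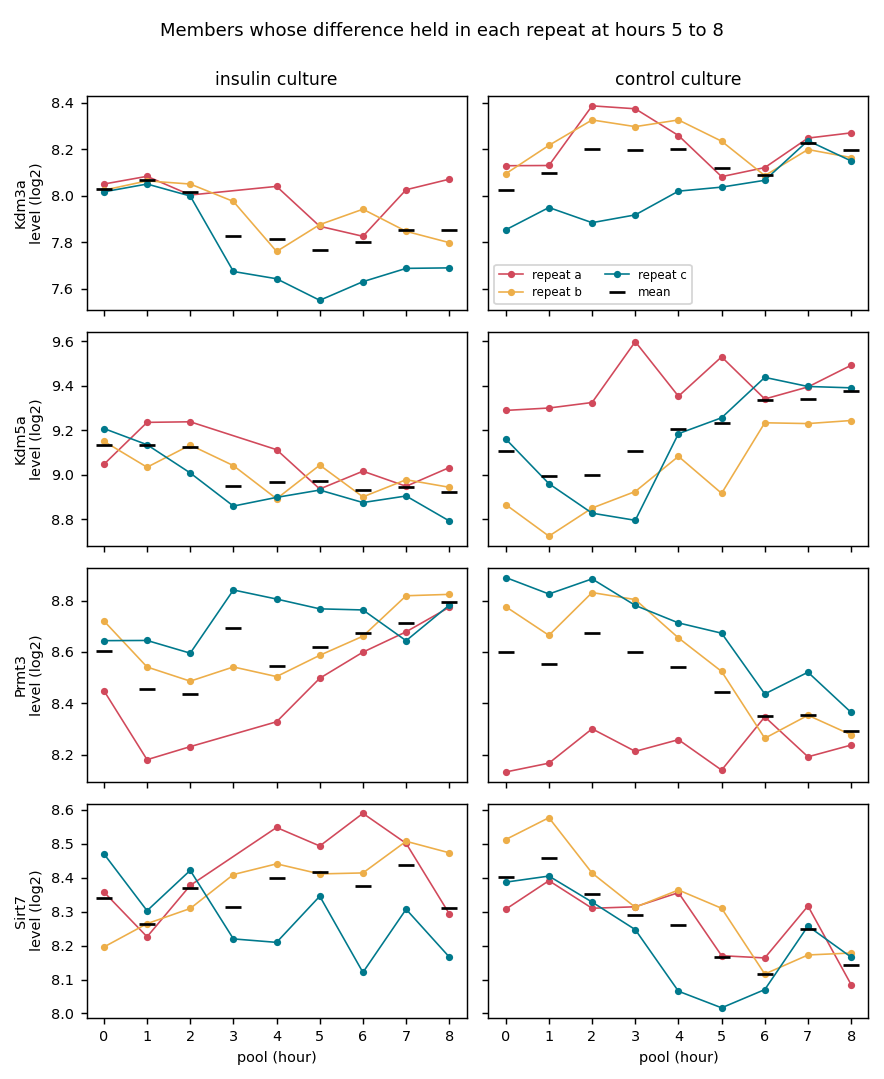
Log2 levels of Kdm3a, Kdm5a, Prmt3 and Sirt7 by hourly pool (horizontal axis, 0 is before insulin) in the insulin culture (left) and the control culture (right), with a line for each repeat and black bars for means of 3 arrays (2 with insulin at hour 3). At hour 8 the mean of Kdm3a was 7.85 with insulin and 8.20 in control, and that of Prmt3 8.79 and 8.29.

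None of the other demethylases was called in the fit without the block at its brightest probe set. Array weights called Kdm3b and Kdm5b over hours 5 to 8, and these, Kdm2b and Kdm8 over hours 1 to 8, where Kdm2b and Kdm6b were called without repeat a. The share of all genes called was not computed for these settings. At hours 5 to 8 Kdm3b was at -0.14 (SE 0.064, adjusted p 0.21), with 0.015 under the block, and Kdm5b at -0.26 (SE 0.094, adjusted p 0.071), with 0.0023 under the block. Of 4 dimmer probe sets of Kdm5b, 1 was lower (-0.33, adjusted p 0.045). Kdm5c was at 0.037 (SE 0.056, adjusted p 0.80). Kdm7a, which acts on lysines 9 and 27 of histone H3, was at -0.26 (SE 0.15, adjusted p 0.36), with 6.9e-04 under the block. Kdm2a and Kdm2b, which bind unmethylated CpG islands and act on lysine 36, were at 0.28 and 0.26 over hours 1 and 2 and at -0.10 and -0.064 over hours 5 to 8, a change that passed under the block alone (adjusted p 0.039 for Kdm2a and 0.019 for Kdm2b). In repeats a, b and c the values over hours 1 and 2 were 0.050, 0.64 and 0.15 for Kdm2a and 0.046, 0.37 and 0.36 for Kdm2b, and repeat b already differed by 0.45 and 0.29 before insulin.

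Of 20 methyl writers tested, Kmt2a was lower over hours 1 to 8 (all genes lower, 8.34%). Over hours 5 to 8 Kmt2e was lower (all genes 6.5%) and Prmt3 and Setd6 were higher (all genes 4.69%). Prmt3, a cytosolic arginine methyltransferase, had lowest, median and highest levels of 8.50, 8.72 and 8.82 at hours 5 to 8 in the insulin culture, against 8.14, 8.35 and 8.67 in the control culture. The ranges overlap through 3 control arrays, of repeat b at hour 5 and repeat c at hours 5 and 7, while the insulin array was higher in 12 of 12 pairs. The difference was 0.34 (SE 0.091, adjusted p 0.012), or 1.26-fold higher, and 0.41, 0.37 and 0.24 in repeats a, b and c. At hour 8 the arrays read 8.77, 8.82 and 8.78 with insulin and 8.24, 8.28 and 8.36 in control. That hour passed with the block (adjusted p 0.0049) and not without it (adjusted p 0.31).

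Against its own time 0, neither culture passed in Prmt3. Hours 5 to 8 minus time 0 were 0.10 (SE 0.14, adjusted p 0.94) with insulin and -0.24 (SE 0.14, adjusted p 0.40) in control. At time 0 the repeats differed by 0.32, -0.055 and -0.25, and over hours 1 and 2 by -0.028, -0.23 and -0.23. Prmt3 missed the threshold at hours 5 to 8 without repeat b (0.32, adjusted p 0.23). Prmt5, the main enzyme of symmetric arginine dimethylation, was at 0.21 (SE 0.076, adjusted p 0.075), with 0.0038 under the block, and Prmt2 at -0.11 (SE 0.045, adjusted p 0.12), with 0.024 under the block.

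Setd6 had 8.25, 8.44 and 8.66 at hours 5 to 8 in the insulin culture, against 8.00, 8.25 and 8.38 in the control culture, and was higher in 11 of 12 pairs, with 6 control arrays inside the insulin range. Its difference was 0.23 (SE 0.069, adjusted p 0.026), or 0.36, 0.15 and 0.18 by repeat, and over hours 1 to 8 it was 0.057 (SE 0.049, adjusted p 0.51). Leaving out any 1 repeat ended the late call (adjusted p 0.16, 0.13 and 0.090 without a, b and c).

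Kmt2e belongs to the MLL family, but its own methyltransferase domain is not known to be active. It had 9.68, 9.92 and 10.17 at hours 5 to 8 in the insulin culture, against 9.78, 10.20 and 10.39 in the control culture, ranges that overlap for most arrays, and was lower in 11 of 12 pairs. The difference was -0.23 (SE 0.070, adjusted p 0.031), or -0.26, -0.12 and -0.30 by repeat. Over hours 1 and 2 it was -0.033, 0.57 and 0.26, after -0.063, 0.30 and 0.042 at time 0. The change between the windows was -0.49 (SE 0.12, adjusted p 0.024). The late call of Kmt2e was lost without repeat a (adjusted p 0.059), without repeat c (adjusted p 0.39), with array weights (adjusted p 0.11) and with the mean over its probe sets (adjusted p 0.061). Over hours 1 to 8 the brightest probe set read -0.027, while 2 of the 4 dimmer ones were lower (-0.17, adjusted p 0.031, and -0.14, adjusted p 0.017).

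Kmt2a, or MLL, methylates lysine 4 of histone H3. Over hours 1 to 8 its levels were 7.28, 7.54 and 8.12 in the insulin culture, against 7.42, 7.85 and 8.07 in the control culture, a difference of -0.20 (SE 0.062, adjusted p 0.027). The repeats gave 0.024, -0.33 and -0.25, and -0.020, -0.33 and 0.013 before insulin, and its dimmer probe set read 0.039. Kmt2c was at -0.20 (SE 0.068, adjusted p 0.053), with 0.0019 under the block. Kmt2b and Kmt2d were at -0.44 (SE 0.17) and -0.35 (SE 0.21) over hours 1 and 2 and at 0.12 and 0.091 over hours 5 to 8, a change that also passed under the block alone (adjusted p 0.048 for Kmt2b, 0.010 for Kmt2d). The early values were -0.093, -0.92 and -0.29 by repeat for Kmt2b and -0.042, -0.42 and -0.60 for Kmt2d, after -0.79 and -0.53 in repeat b before insulin. With 1 mean per repeat no change of any member passed (all genes 0.0777%).

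Of 16 acetyl erasers tested, Hdac5 and Sirt2 were lower (all genes 8.34%) and Sirt5 higher (all genes 5.75%) over hours 1 to 8. Over hours 5 to 8 Sirt4 was lower (all genes 6.5%) and Sirt7 higher (all genes 4.69%). Sirt7, a nucleolar deacetylase, had 8.12, 8.41 and 8.59 at hours 5 to 8 in the insulin culture, against 8.02, 8.17 and 8.32 in the control culture. The ranges overlap, but the insulin array was higher in 12 of 12 pairs. The difference was 0.22 (SE 0.052, adjusted p 0.0041), or 1.16-fold higher, and 0.29, 0.26 and 0.11 by repeat, after 0.051, -0.32 and 0.083 at time 0. Hours 5 to 8 minus time 0 were 0.044 (SE 0.082, adjusted p 0.95) within the insulin culture and -0.23 (SE 0.082, adjusted p 0.081) within the control culture, the second of these called with the block (adjusted p 0.019). The late call was lost without repeat a (adjusted p 0.13) and without repeat b (adjusted p 0.13).

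Sirt4, a mitochondrial sirtuin, ran the other way. It had 6.14, 6.38 and 6.69 at hours 5 to 8 in the insulin culture, against 6.42, 6.74 and 6.95 in the control culture, and was lower in 12 of 12 pairs. The difference was -0.25 (SE 0.069, adjusted p 0.014), or -0.30, -0.31 and -0.13 by repeat, and was lost without repeat a (adjusted p 0.089) and without repeat b (adjusted p 0.26). In the control culture Sirt4 rose over time 0 by 0.34 (SE 0.11, adjusted p 0.048), the one member called there (all genes 7.55%; 10 members with the block, 22.1% of all genes). In the insulin culture it stood at 0.048 (SE 0.11, adjusted p 0.96) against its time 0, where no member passed (all genes 1.61%; at an unadjusted p under 0.05, 4 members and 10.9% of all genes) and the block called Kdm5c alone (all genes 9.56%).

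Hdac5, one of the class IIa deacetylases, had the most negative difference over hours 1 to 8, -0.34 (SE 0.086, adjusted p 0.0062), or 1.27-fold lower. Its lowest, median and highest levels were 7.61, 8.30 and 8.65 in the insulin culture, against 8.13, 8.49 and 9.07 in the control culture. The repeats did not share it, with -0.0087, -0.63 and -0.37 in a, b and c, and before insulin the same repeats differed by -0.27, -0.49 and -0.13. With time 0 subtracted it was -0.048 (SE 0.26, adjusted p 1.00). Its dimmer probe set read -0.074 (adjusted p 0.55). The other class IIa members Hdac4 and Hdac7 were at -0.084 and 0.0041, and the class I enzymes Hdac1, Hdac2, Hdac3 and Hdac8 at 0.055, 0.094, -0.029 and 0.0016, of which Hdac2 was called with the block (adjusted p 0.016).

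Sirt2, a largely cytosolic deacetylase, had 9.28, 9.46 and 10.09 over hours 1 to 8 in the insulin culture, against 9.47, 9.80 and 10.36 in the control culture, a difference of -0.26 (SE 0.080, adjusted p 0.025). The repeats gave 0.10, -0.50 and -0.34, after 0.27, -0.81 and 0.056 at time 0. In repeat b the control arrays read 10.16 to 10.36 from time 0 to hour 5 and 9.47 to 9.53 from hour 6 on. Sirt5, which removes succinyl groups in mitochondria, had 9.18, 9.44 and 9.77 in the insulin culture, against 9.06, 9.30 and 9.63 in the control culture, a difference of 0.15 (SE 0.039, adjusted p 0.0066). By repeat it was -0.040, 0.28 and 0.19, after -0.030, 0.32 and 0.017 at time 0.

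Without the 12 arrays of repeat b from time 0 to hour 5, the hours 1 to 8 differences of Hdac5, Sirt2, Sirt5, Kmt2a and Kat6b missed the threshold (adjusted p 0.27, 0.51, 0.28, 0.37 and 0.36), while 5.46% of all genes passed. The same 5 missed it without repeat b as a whole. Without repeat c, Sirt2, Kmt2a and Sirt5 did so (adjusted p 0.28, 0.11 and 0.18). Without those 12 arrays Kdm3a and Kdm5a passed (adjusted p 0.0039 and 0.0070).

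**Figure D4:**
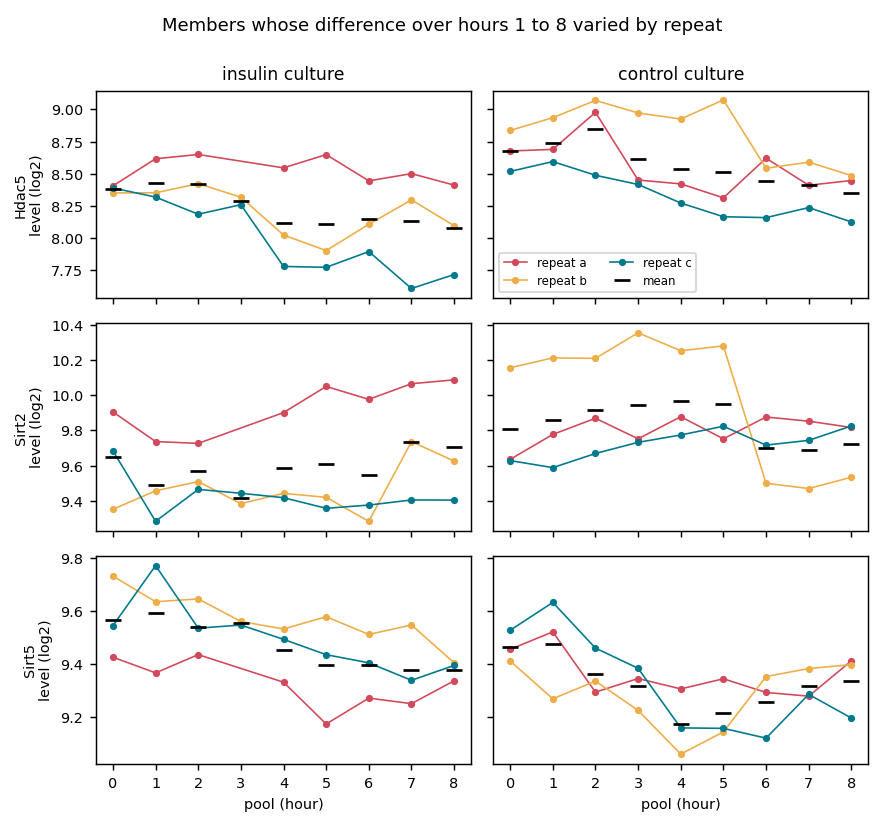
Log2 levels of Hdac5, Sirt2 and Sirt5 by hourly pool (horizontal axis) in the insulin culture (left) and the control culture (right), with a line for each repeat and black bars for means. In the control culture, repeat b of Sirt2 read 10.28 at hour 5 and 9.50 at hour 6, and repeat b of Hdac5 9.07 and 8.54.

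Of 7 acetyl writers, Kat6b passed, lower over hours 1 to 8 (all genes lower, 8.34%) and over hours 5 to 8 (all genes lower, 6.5%). This MYST acetyltransferase had 7.29, 7.60 and 7.83 at hours 5 to 8 in the insulin culture, against 7.71, 7.83 and 8.03 in the control culture, and the insulin arrays inside the control range were all of repeat a. The difference was -0.23 (SE 0.070, adjusted p 0.031), or -0.014, -0.23 and -0.44 by repeat, and -0.18 (SE 0.050, adjusted p 0.014) over hours 1 to 8. The late call was lost without repeat b (adjusted p 0.24) and without repeat c (adjusted p 0.34). A dimmer probe set was also lower at hours 5 to 8 (-0.26, adjusted p 0.021). Kat2a and Kat2b, the alternative acetyltransferases of the SAGA and ATAC complexes, were at 0.29 (SE 0.15, adjusted p 0.27) and -0.30 (SE 0.14, adjusted p 0.19), and Kat2b passed with the block (adjusted p 7.3e-04). A dimmer probe set of Kat14 was higher over hours 1 to 8 (0.16, adjusted p 0.040), where the brightest read 0.031.

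Across the hours of the control culture no member was called (all genes 5.04%; at an unadjusted p under 0.05, 4 members and 13.2% of all genes). With the block 8 were (all genes 19%), Prmt2, Kmt5b, Prmt5, Sirt4, Kmt2e, Kdm8, Sirt7 and Kat6b.

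Enzymes and partners outside these families were read from 4 further lists, over hours 1 to 8, beside the 14.1% of all genes called. The block called 30.5% of all genes. Of 37 other histone-modifying enzymes 6 were higher and 2 lower (10 higher and 4 lower with the block), with a median of -0.017. The oxygenases Riox2 and Jmjd6 were at 0.35 (SE 0.069, adjusted p 4.2e-04) and 0.38 (SE 0.077, adjusted p 5.9e-04), and the methyltransferase Ezh1 at -0.26 (SE 0.054, adjusted p 8.8e-04). Riox1 was at 0.27 (SE 0.068, adjusted p 0.0057). Of 60 complex subunits and corepressors 5 were higher and 4 lower (5 higher and 10 lower with the block). Ing4, which reads lysine 4 methylation, had the largest difference of those called, -0.29 (adjusted p 2.3e-05). Eed (0.26, adjusted p 0.0039), Sap30l (-0.24, adjusted p 0.0052) and Suz12 (0.22, adjusted p 0.032) followed. Of the smaller ones, Wdr5, shared by the Kmt2 complexes, was at 0.18 (adjusted p 0.0011), and Wdr77, the partner of Prmt5, at 0.18 (adjusted p 0.0042).

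Of 14 genes of cofactor supply 3 were higher and 2 lower (5 higher and 2 lower with the block). The S-adenosylmethionine synthetase Mat2a was at 0.31 (SE 0.075, adjusted p 0.0047) and its regulatory subunit Mat2b at -0.22 (SE 0.047, adjusted p 0.0013). Nampt, of NAD+ salvage, was at 0.14 (adjusted p 0.0030), Nnmt at 0.20 (adjusted p 0.0054) and Ahcy at -0.18 (adjusted p 0.029). Of 15 histone ubiquitin enzymes none was higher and 2 were lower (2 higher and 4 lower with the block), the conjugating enzymes Ube2b at -0.15 (adjusted p 0.0054) and Ube2a at -0.12 (adjusted p 0.0076). Over hours 5 to 8 Ube2b passed (-0.28, adjusted p 1.9e-04) and Ube2a did not (-0.078, adjusted p 0.33). In that window the lists had, in the order given, 5, 3, 3 and 0 genes higher and 3, 2, 1 and 1 lower (all genes called, 11.2%). Genes of these lists were not read by repeat, at time 0 or without repeat b.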

How the data were processed

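RNA of L6 rat myotubes was measured on 53 Affymetrix rat expression arrays. The authors deposited log2 values, made from the scanned intensities by background subtraction, quantile normalization and RMA, whose version is not given in the sources used here. RMA borrows strength across arrays and compresses small differences of dim probe sets. Precision is set by how many arrays a group has. Labels of the last pool disagree on its first harvest time, so pools are numbered by hour.

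The 21958 brightest probe sets by mean entered 1 fit of 18 group means (culture and hour) in limma 3.58.1 (R 4.3.3, lmFit and eBayes with trend), with Benjamini-Hochberg adjustment over all of them and a threshold of 0.05, two-sided. Percentages of all genes use the brightest probe set of each of 11577 tested genes. Symbols come from the dated platform annotation, and 2 probe sets with several symbols were left out. Hdac9, Sirt1, Prmt1 and Kdm6a had no probe set under these symbols alone, so the families were not read in full. Repeat letters are read as the repeats made on different days, and the sample titles give the letter and no day. Arrays of the 2 cultures with the same letter and hour deviated together in 26 of 26 pairs (correlations 0.21 to 0.79). The block fits 1 shift per letter over all hours and both cultures. It does not pair arrays by hour, and cannot take up a shift of 1 culture or of some hours. Differences are on the log2 scale, and fold values are on the linear scale. Members were named where a test passed at the brightest probe set, and others of their families beside them after their values were seen. Genes of the further lists were also named after their values were seen. The members and lists were chosen with earlier results of these data known. Alternatives were the block, 1 mean per repeat, leaving out repeats or the early arrays of repeat b, other filters, centring, prior and weights, subtraction of time 0 and the mean over probe sets. Python 3.11.15 with pandas 2.3.3 searched promoters.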

Additional observations from a re-analysis of the deposited data

Results flagged for a closer look

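The insulin minus control difference of 2 members changed between hours 1 and 2 and hours 5 to 8 by the test of that change itself. Kdm5a changed by -0.51 (SE 0.13, adjusted p 0.033), standing at 0.13 early and -0.38 late. Kmt2e changed by -0.49 (SE 0.12, adjusted p 0.024), standing at 0.27 early and -0.23 late. At time 0 the differences in repeats a, b and c were -0.24, 0.28 and 0.047 for Kdm5a and -0.063, 0.30 and 0.042 for Kmt2e. Without the arrays of repeat b at hours 0 to 5 the changes were -0.48 for Kdm5a (adjusted p 0.25) and -0.39 for Kmt2e (adjusted p 0.26), and with 1 mean per repeat the adjusted p were 0.10 and 0.12. With the mean over a gene's probe sets they were -0.37 for Kdm5a (adjusted p 0.19) and -0.12 for Kmt2e (adjusted p 0.66). Neither passed without repeat b or without repeat c.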

How the results depend on the processing

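With the letter of the repeat as a block the counts were 6 higher and 13 lower over hours 1 to 8, 5 higher and 13 lower over hours 5 to 8, 1 in hours 1 and 2, 7 upward and 6 downward changes from early to late, 7 at any hour and 8 over time in the control culture. All members called without the block over hours 1 to 8, hours 5 to 8 and the change were called with it. Leaving out each repeat in turn gave 0 to 3 higher and 2 to 10 lower over hours 1 to 8, 0 to 4 higher and 2 to 4 lower over hours 5 to 8, 0 to 2 in hours 1 and 2, 0 to 1 upward and 0 to 3 downward changes, 0 to 3 at any hour and 0 to 4 in control. Without repeat b at hours 0 to 5 the counts were 0 higher and 2 lower over hours 1 to 8, 0 downward changes and 0 at any hour. A mean level of at least 6, or a prior without trend, gave 2 higher over hours 1 to 8 and 1 in control. Array weights gave 5 higher and 14 lower over hours 1 to 8, 6 higher and 8 lower over hours 5 to 8, 3 upward changes, 9 at any hour and 3 in control. Relative to time 0 and with 1 mean per repeat all counts over hours 1 to 8 and hours 5 to 8 were 0, as were any hour (relative to time 0) and, with 1 mean per repeat, hours 1 and 2 and the upward and downward changes. The mean over probe sets gave 2 higher over hours 1 to 8, 0 downward changes and 1 in control. F tests could not be fitted with 1 mean per repeat. Shares of all genes were not computed for array weights, a whole repeat left out, filters, centring, prior or the mean over probe sets. Over hours 1 to 8 Kmt2e turned to 0.050 without repeat a, 0.0051 without repeat c and 0.032 with array weights, and Setd6 to -0.011 without repeat a. Leaving out each repeat gave -0.14 to 0.050 for Kmt2e and -0.011 to 0.11 for Setd6. Over hours 5 to 8 Sirt2 turned to 0.020 without repeat c and 0.043 relative to time 0 (leaving out each repeat, -0.29 to 0.020). Without an alternative none of these 3 was called in the window named, and Kmt2e was with the mean over probe sets (-0.14, adjusted p 0.026). The causes were not tested. Kdm3a lay between -0.30 and -0.28 over hours 1 to 8 in 13 alternatives and was called in 11.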
